A study of Mus musculus with 300 samples.

Results

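The cells described here are adult mouse spermatogonia in which Gfra1 and Kit were both measured at 1 FPKM or more (FPKM, a fragment count corrected for the length of the transcript and the size of the library). They number 43 of 300 cells. They were set against the 50 cells with Kit at 1 FPKM or more and Gfra1 under 1 (Kit-only cells), and the 131 cells with Gfra1 at 1 FPKM or more and Kit under 1 (Gfra1-only cells) were placed beside them. The remaining 76 cells had neither gene at 1 FPKM. All 300 cells came from untreated adult mice carrying an ID4-EGFP reporter, in 4 preparations of dissociated testis from at least 2 pooled animals each. They had been sorted for bright CD9 and for EGFP before capture on Fluidigm C1 chips, and each cell's label carries an EGFP brightness quartile, from Q1 (brightest) to Q4 (dimmest). All groups therefore share the reporter and the sort, and the pool holds only cells that still showed EGFP. The strain and the exact age are not given in the sources used here.

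GFRA1 is the co-receptor that, together with the tyrosine kinase RET, binds GDNF, the Sertoli cell factor on which self-renewal of spermatogonial stem cells depends. KIT is the receptor for stem cell factor (KITL) and marks spermatogonia that have entered differentiation under retinoic acid. STRA8 is induced by retinoic acid in differentiating spermatogonia and again at meiotic entry. Gfra1 is therefore commonly used as a mark of the least differentiated spermatogonia and Kit as a mark of differentiating ones, and cells holding transcripts of both sit across that division.

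The labels name 4 preparations but do not tie the number in each sample title to one of them. That number was taken to mark the preparation, and n = 4 and the comparisons within preparation depend on it. Cells with the same number were not counted as replicates. The 43 cells with both genes were spread as 3, 12, 12 and 16 over preparations 1 to 4, and the Kit-only cells as 13, 6, 11 and 20. Means of preparation 1 for the cells with both genes thus rest on 3 cells. All 300 cells, the 43 among them, met the germ cell marker list (at least 3 and at least 50% of its members at 5 FPKM or more). None of the 43 met the list of any other testis cell type, while 4 Kit-only and 3 Gfra1-only cells met the macrophage or leukocyte list. Summed over that list, the highest level was 89.7 FPKM in a cell with both genes and 11083 FPKM in a Kit-only cell, with a median of 0 in both. Of its 9 members in the table, 2 stood at 0 in every cell with both genes. Leaving out the cells that matched another type left the numbers of called genes given further on as they were, 0 against Kit-only and 4 against Gfra1-only cells. Capture sites with dead cells, debris or more than 1 cell had been excluded by imaging, per the labels. No doublet caller was run, and the part that undetected multiplets could have in the class with both genes was not tested.

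The cells were chosen by their Gfra1 and Kit values, so the levels of these genes are given as a description, with no test. Gfra1 ran from 2.44 to 281 FPKM in the 43 cells, with a median of 20.8. By preparation its median was 5.75, 38.5, 19.4 and 18.3 FPKM. In Gfra1-only cells it ran from 1.70 to 543 FPKM with a median of 43.8, so the median was lower in the cells with both genes while the ranges overlapped. Of the 50 Kit-only cells, 45 were listed at 0 for Gfra1 and 5 lay between 0 and 1 FPKM. Kit ran from 1.03 to 115 FPKM in the cells with both genes, with a median of 20.4 and preparation medians of 28.6, 16.2, 14.4 and 35.9. In Kit-only cells Kit ran from 1.25 to 154 FPKM with a median of 24.6. The Kit ranges of both classes overlapped almost entirely.

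Few cells sat at the threshold. The 3 lowest Gfra1 values inside the class were 2.44, 3.19 and 3.91 FPKM, and the 3 highest outside it, among Kit-only cells, were 0.69, 0.48 and 0.38. For Kit the lowest inside were 1.03, 1.68 and 1.87 FPKM, and the highest outside, among Gfra1-only cells, were 0.84, 0.78 and 0.72. Both genes stood at 5 FPKM or more in 31 of the 43 cells and at 10 or more in 26. Gfra1 exceeded Kit in 22 of the 43, and the 2 levels showed almost no rank relation over these cells, which share chips and depth (Spearman's rho 0.03). Gfra1 is annotated in GENCODE at chr19:58235604-58455909 on the minus strand of GRCm38, and Kit at chr5:75574916-75656722 on the plus strand. The libraries did not mark strand, so reads of Gm16277, which overlaps Gfra1 exons on the other strand, cannot be told apart from Gfra1 reads. The same holds for Sall4, Ccnd2, Mcam, Sycp3, Neurog3, Eomes, Nanos2, Fst, Pyroxd1, Kctd15, Ccdc122, Polr3gl, Sphk1, Ccnd1, Lin28a, Ndufs1 and Sh2b3, named further on, whose exons also overlap a gene of the opposite strand.

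**Figure D1:**
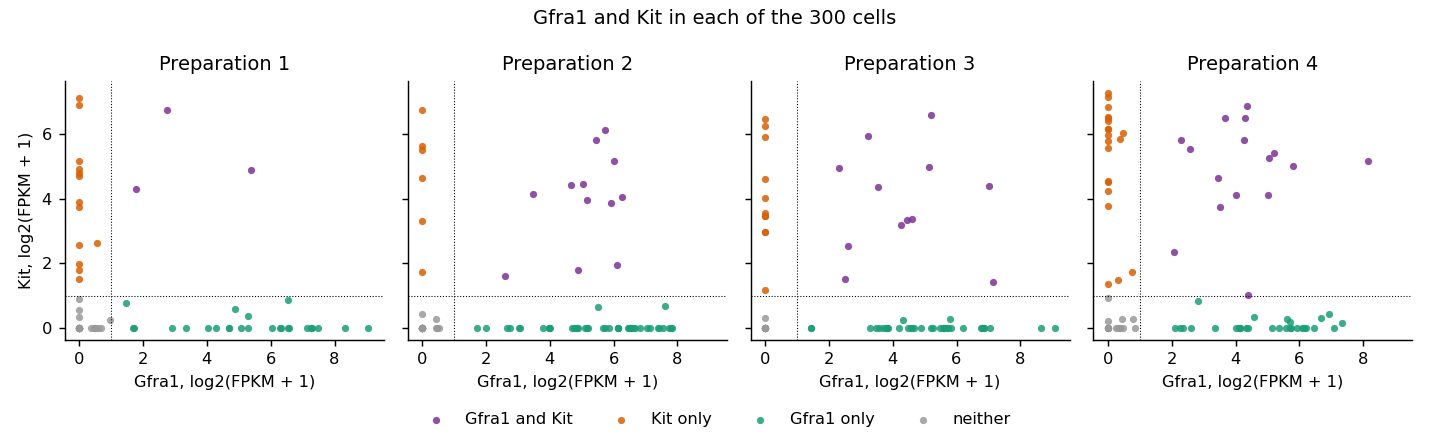
Gfra1 (x axis) and Kit (y axis) in every cell as log2(FPKM + 1), 1 panel per preparation; dotted lines mark 1 FPKM and colours the 4 classes. The cells with both genes (3, 12, 12 and 16) spread over the upper right of each panel, with few of them near the dotted lines.

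Gfra1 was also listed at 1 FPKM or more in fewer Kit cells than cells without Kit. It was present in 43 of 93 cells with Kit (46.2%) and in 131 of 207 cells without Kit (63.3%). Within preparations the shares were 18.8% against 49.02%, 66.7% against 65.6%, 52.2% against 72.9% and 44.4% against 65.9%. The share was thus lower among Kit cells in preparations 1, 3 and 4 and about equal in preparation 2. From the brightest quartile to the dimmest it was 76.5, 47.4, 56.5 and 23.5% among Kit cells and 83.9, 74.6, 45.8 and 34.2% among cells without Kit, so it was lower among Kit cells in Q1, Q2 and Q4 and higher in Q3.

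The EGFP labels placed the cells with both genes between the other classes. The 43 cells fell as 13, 9, 13 and 8 into quartiles Q1 to Q4. Of the Kit-only cells, 4 were in Q1 and 26 in Q4, whereas 52 of the Gfra1-only cells were in Q1 and 13 in Q4. Cells with neither gene fell as 10, 15, 26 and 25 into Q1 to Q4. Their shares in Q1 (13.2%) and Q4 (32.9%) also lay between those of Kit-only and Gfra1-only cells. A place between these classes was thus not particular to cells with both genes. With the quartile taken as a number (1 brightest, 4 dimmest), the mean was 2.48 ± 0.36 in cells with both genes (SD, n = 4), 3.14 ± 0.26 in Kit-only cells and 1.97 ± 0.13 in Gfra1-only cells. By preparation the cells with both genes averaged 3.00, 2.17, 2.33 and 2.44, and the Kit-only cells 2.92, 3.33, 2.91 and 3.4. They were brighter than Kit-only cells by 0.66 of a quartile on average and in 3 of 4 preparations, preparation 1 with its 3 cells being the exception (exact two-sided sign-flip permutation p = 0.25). They were dimmer than Gfra1-only cells in 4 of 4 preparations (exact p = 0.125). With 4 preparations this test cannot go below 0.125, so neither difference can pass 0.05.

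**Figure D2:**
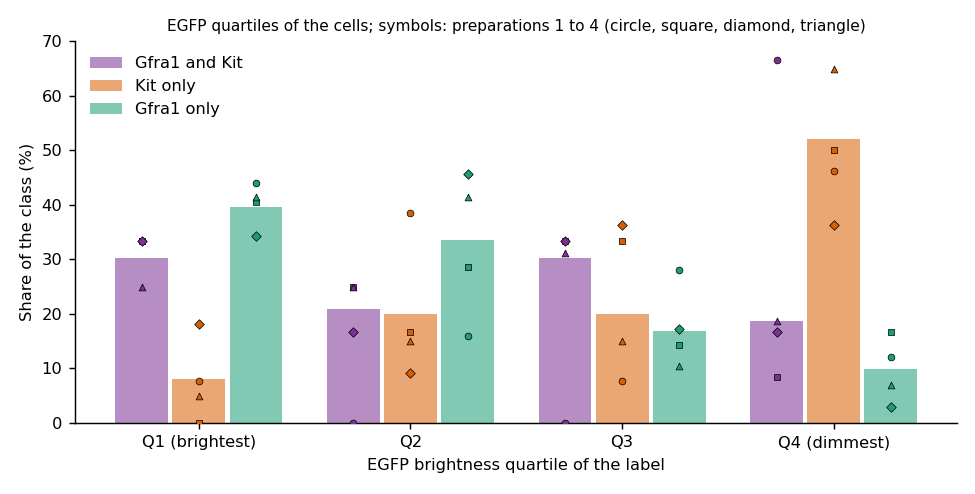
Share of each class (y axis, %) in the 4 EGFP quartiles (x axis); bars pool all cells of a class and symbols are the 4 preparations. The cells with both genes were spread over all quartiles (30.2, 20.9, 30.2 and 18.6%), while 26 of 50 Kit-only cells were in Q4.

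The number of detected genes (1 FPKM or more, Gfra1 and Kit not counted) differed between cells with both genes and Kit-only cells by less than its spread over preparations. It ran from 4445 to 7613 with a median of 6507 in the 43 cells, and from 3264 to 7635 with a median of 5928 in the Kit-only cells. Preparation means were 4757, 6366, 6145 and 6748 against 4534, 6454, 6065 and 6422. Averaged over preparations, cells with both genes had 135 genes more, and they had more in 3 of 4 preparations (exact two-sided sign-flip permutation p = 0.375). Gfra1-only cells had a median of 5366 detected genes and preparation means of 4434, 5782, 5356 and 5871, so cells with both genes had 643 more, in 4 of 4 preparations (exact p = 0.125). A cell enters the class by having both transcripts detected, so detection is not independent of the rule. Within the 43 cells the rank relation of detected genes was -0.09 with Gfra1 and 0.16 with Kit. Preparation 1 had fewer genes per cell in every class.

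**Figure D3:**
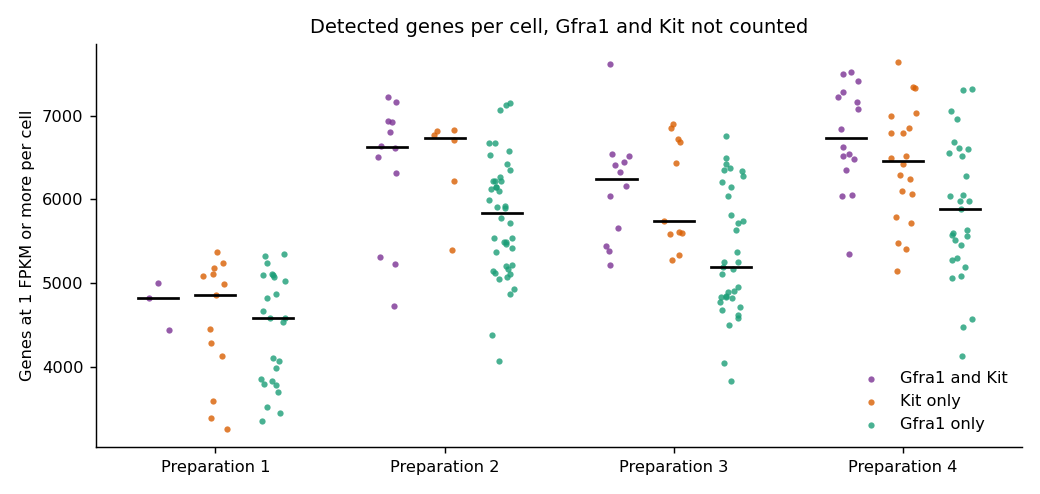
Genes at 1 FPKM or more in each cell (y axis) by preparation and class (x axis); each point is a cell and each bar the median. Cells with both genes overlap Kit-only cells in every preparation, and the medians of preparation 1 lie lowest (cells at 4445 to 5000 for the cells with both genes).

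Expression was then compared across genes. For each gene the mean of log2(FPKM + 1) over cells was taken per preparation and class, and differences between classes are on that scale, where low genes change less than their FPKM. Tests are from limma with the preparation as a block and Benjamini-Hochberg adjustment over 10409 genes, with a threshold of 0.05. The first question is how cells with both genes differed from Kit-only cells. No gene passed (0 of 10409, 0%), and the smallest adjusted p was 0.0727. At an unadjusted p under 0.05 there were 1090 genes (10.5%), of which 603 (5.79%) were higher and 487 (4.68%) lower in cells with both genes. Higher in every preparation were 656 genes (6.30%), and 736 (7.07%) were higher in none, counting ties as not higher. The median SE of a gene was 0.38 on the log2 scale. Without preparation 2, 1 gene passed: Kctd15, a BTB domain protein, was lower by a log2 difference of -2.03 (limma, adjusted p = 0.0117), against -1.57 with all preparations (adjusted p = 0.126).

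No gene of the differentiating list passed the threshold against Kit-only cells, and most of its members had lower averages in cells with both genes. Stra8 ran from 0 to 843 FPKM with a median of 252 in cells with both genes, and from 0 to 2300 FPKM with a median of 376 in Kit-only cells. By preparation the medians were 270, 261, 128 and 335 FPKM against 395, 387, 195 and 493. The mean log2 level was lower in cells with both genes in 4 of 4 preparations, but by only -0.26 (SE 0.34, limma adjusted p = 0.823). Stra8 was at 1 FPKM or more in 39 of 43 cells with both genes and in 47 of 50 Kit-only cells. The preparation means of this share were 91.7% ± 11.8 and 92.3% ± 7.05 (SD, n = 4; exact two-sided sign-flip permutation p = 1), a difference of -0.64 percentage points whose sign turned without preparation 3 (4.44). Sohlh1, a transcription factor that drives Kit expression and differentiation, was at 1 FPKM or more in 40 of 43 and 47 of 50 cells, with medians of 107 and 140 FPKM. The log2 difference of Sohlh1 was -0.65 (SE 0.42, adjusted p = 0.598), and that of Dnmt3b, a de novo DNA methyltransferase, was -0.63 (SE 0.42, adjusted p = 0.606), both negative in every preparation. Sycp3, a component of the synaptonemal complex, differed by -0.47 (SE 0.17, adjusted p = 0.378), also negative in every preparation. Of the 13 tested genes of the differentiating list, 2 lay above 0 and 11 below, with a median of -0.26 against 0.02 over all tested genes. The member of smallest p lay the other way: it was Ccnd2, a cyclin described with the next genes, at 1.72. Among those below 0, Dmrt1, a transcription factor that holds back meiotic entry, differed by -0.85 (SE 0.36, adjusted p = 0.428), with -2.25, -0.97, -0.04 and -0.14 in preparations 1 to 4. Over the 17 alternatives tried, between 1 and 5 of the 13 lay above 0.

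Genes of GDNF signalling and of the undifferentiated state were compared next. Ret, the signalling partner of GFRA1, was at 1 FPKM or more in 27 of 43 cells with both genes and in 16 of 50 Kit-only cells. By preparation the shares were 66.7, 41.7, 66.7 and 75% against 15.4, 33.3, 54.5 and 30.0%, higher in 4 of 4 preparations (exact two-sided sign-flip permutation p = 0.125, the smallest possible). The median of Ret was 3.26 FPKM against 0, and its log2 difference was 1.40 (SE 0.38, adjusted p = 0.199). Ret was also at 1 FPKM or more in 43 of the 76 cells with neither gene. Its mean log2 level was 2.02 there, 2.34 in cells with both genes and 0.94 in Kit-only cells. Ccnd2, cyclin D2, a cell cycle regulator that responds to GDNF in cultured stem cells, had medians of 47.02, 131, 83 and 79.1 FPKM by preparation in cells with both genes and 12.4, 41.8, 7.25 and 68.4 in Kit-only cells. All 43 cells with both genes held it, against 42 of 50 (log2 difference 1.72, SE 0.40, adjusted p = 0.18, higher in 4 of 4 preparations). Sall4, a zinc finger factor of undifferentiated spermatogonia, had a median of 303 FPKM against 195 (log2 difference 1.47, SE 0.30, adjusted p = 0.128, 4 of 4). Mcam, a surface adhesion molecule used to sort undifferentiated spermatogonia, had a median of 70.5 against 25.2 FPKM (log2 difference 1.99, SE 0.50, adjusted p = 0.18, 4 of 4). These genes were among the members of smallest p in their lists, and none passed the threshold. Above 0 lay 13 of 15 GDNF and FGF genes, but 11 of 19 undifferentiated and progenitor genes (median 0.07). Of the GDNF receptor list 7 of 14 lay above 0, where 52.3% of all genes did. Frs2, of that list, differed by -0.74 (adjusted p = 0.44), negative in every preparation. Lin28a differed by -0.53 (adjusted p = 0.698), higher in 1 of 4 preparations.

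Etv5 and Dusp6, which GDNF and FGF signalling induce, had the same sign in preparations 2, 3 and 4 and the opposite one in preparation 1. Etv5 was at 1 FPKM or more in 34 of 43 cells with both genes and in 19 of 50 Kit-only cells, with medians of 15.1 and 0.11 FPKM. Its log2 differences were -0.71, 2.05, 2.32 and 1.90 in preparations 1 to 4 (mean 1.39, SE 0.48, adjusted p = 0.34), and the mean was 2.09 without preparation 1. At a class threshold of 5 FPKM the difference of Etv5 was 1.84. It was only 0.27 when taken within EGFP quartiles and 0.39 with log2 of mean FPKM. Dusp6, a phosphatase that dampens ERK signalling, was at 1 FPKM or more in 34 and 20 cells, and its differences were -0.42, 3.4, 1.74 and 2.78 (mean 1.88, SE 0.52, adjusted p = 0.213). Ret and Etv5 were found together in 24 of 43 cells with both genes, in 8 of 50 Kit-only cells and in 91 of 131 Gfra1-only cells. Cells holding Stra8, Ret and Etv5 at once numbered 22 of 43, 7 of 50 and 54 of 131. Among cells with neither gene, 26 of 76 held Ret and Etv5 together and 14 of 76 held all 3. These counts pool preparations that are unevenly represented in the classes. In preparation 1 the share with Etv5 was 33.3% in cells with both genes and 53.8% in Kit-only cells.

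Neurog3, a transcription factor of progenitors about to differentiate, was rare in all classes. It was at 1 FPKM or more in 9 of 43 cells with both genes, 3 of 50 Kit-only cells and 12 of 131 Gfra1-only cells. The mean share over preparations was 23.4% ± 7.49 in cells with both genes, against 6.12% ± 7.52 in Kit-only and 8.61% ± 5.81 in Gfra1-only cells (SD, n = 4), higher in 4 of 4 preparations on both sides (exact p = 0.125 each). Sox3, another progenitor factor, had mean shares of 54.2% ± 10.8, 36.8% ± 6.73 and 29.6% ± 11.1 (exact p = 0.125 on both sides, 4 of 4 preparations each). As log2 levels neither passed the limma test: the differences from Kit-only cells were 0.53 for Neurog3 (adjusted p = 0.426) and 0.25 for Sox3 (adjusted p = 0.786, higher in 3 of 4 preparations), and those from Gfra1-only cells were 0.55 for Neurog3 (adjusted p = 0.373) and 0.28 for Sox3 (adjusted p = 0.752, higher in 2 of 4). Both comparisons use the same cells with both genes, which also had the highest median number of detected genes of the 4 classes, and the part of detection in these shares was not tested.

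The genes of smallest p in this comparison were outside the panel and also failed the threshold. Tagln2, an actin-binding protein, had medians of 112, 161, 163 and 129 FPKM by preparation in cells with both genes and 18.9, 60.02, 43.2 and 57.6 in Kit-only cells. No preparation median of Kit-only cells reached any of the cells with both genes, and the log2 difference was 2.00 (SE 0.33, adjusted p = 0.0727). The difference of Tagln2 was 0.89 when taken within EGFP quartiles and 1.05 with log2 of mean FPKM. The next higher were Pyroxd1, an oxidoreductase (2.23, adjusted p = 0.0933), and Sdc4, syndecan 4, a cell surface proteoglycan (0.90), followed by Fam187b (1.42) and Fst (1.60), the activin-binding follistatin. Fst was at 1 FPKM or more in 24 of 43 cells with both genes and in 8 of 50 Kit-only cells. On the lower side, after Kctd15, came Hinfp, a regulator of histone H4 genes (-1.80), Ano1, a chloride channel (-1.06), Ccdc122 (-1.12) and Wdr24, a subunit of the GATOR2 complex upstream of mTORC1 (-1.40), all with adjusted p between 0.126 and 0.18.

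The second question is how cells with both genes differed from Gfra1-only cells, which share Gfra1. The comparison uses the same cells with both genes as the first and is set beside it only. Here 4 of 10409 genes (0.0384%) passed, all higher in cells with both genes, and 3 of them are described here: Stra8, Crabp1 and Gmnn. Stra8 is described above; CRABP1 is an intracellular binding protein for retinoic acid, and geminin, the product of Gmnn, restrains re-licensing of replication origins. In GENCODE, on GRCm38, Stra8 lies at chr6:34920163-34939344, and Crabp1 at chr9:54764748-54773110, both on the plus strand, and Gmnn at chr13:24751845-24761923 on the minus strand, with no exon of another gene over theirs. At an unadjusted p under 0.05 there were 963 higher (9.25%) and 210 lower (2.02%) genes. Genes higher in every preparation numbered 1431 (13.7%), and 535 (5.14%) were higher in none, counting ties as not higher. The median difference over all genes was 0.14, so this comparison leans toward higher values in the class with more detected genes. Centring every mean on its own median moved that value to -0.10.

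Stra8 had preparation medians of 1.23, 9.07, 0 and 10.8 FPKM in Gfra1-only cells, against 270, 261, 128 and 335 in cells with both genes. It was at 1 FPKM or more in 76 of 131 against 39 of 43 cells. The preparation means did not overlap, at 3.18 ± 0.83 and 7.07 ± 1.16 (log2 level, SD, n = 4). The log2 difference was 3.89 (SE 0.34, limma adjusted p = 3.77e-06), with 4.11, 3.57, 3.56 and 4.32 in preparations 1 to 4. Crabp1 had a median of 332 FPKM in cells with both genes, 488 in Kit-only and 176 in Gfra1-only cells, and its log2 difference from the last was 2.21 (SE 0.35, adjusted p = 0.0159, 4 of 4). Gmnn had preparation medians of 486, 267, 268 and 286 FPKM against 175, 154, 136 and 151 in Gfra1-only cells, a log2 difference of 2.07 (SE 0.32, adjusted p = 0.0137, 4 of 4). Against Kit-only cells Stra8, Crabp1 and Gmnn differed by -0.26, -0.09 and 0.16, with adjusted p from 0.823 to 0.954.

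**Figure D4:**
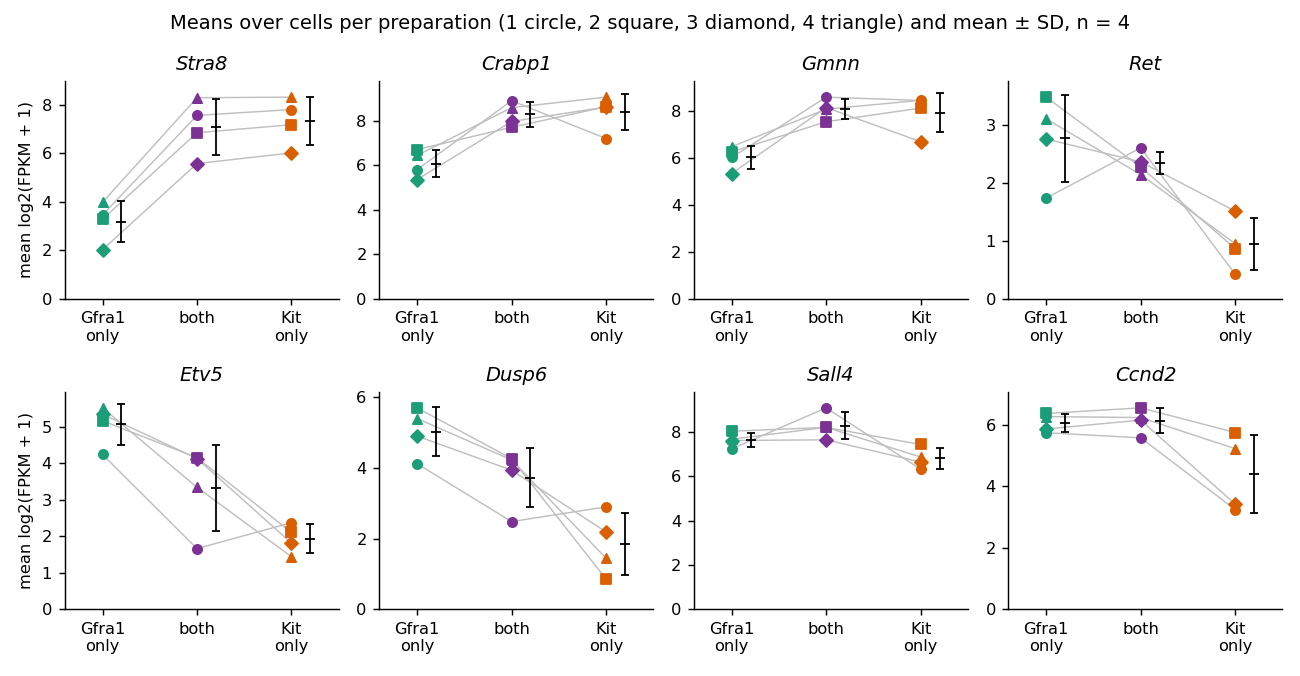
Mean log2(FPKM + 1) over cells (y axis) of 8 genes in Gfra1-only cells, cells with both genes and Kit-only cells (x axis); linked symbols are the 4 preparations and black bars the mean ± SD. Stra8 rose from 3.18 in Gfra1-only cells to 7.07 in cells with both genes, near the 7.33 of Kit-only cells, and Ret had means of 2.76, 2.34 and 0.94.

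These calls depend on the fit. With detected genes per cell as a covariate, 0 genes passed, and the log2 difference of Stra8 was 3.68 (adjusted p = 0.328). With differences taken within preparation and EGFP quartile, 0 passed as well, Stra8 differing by 3.89 (adjusted p = 0.713). With the log2 of the mean FPKM in place of the mean of logs, the differences of Stra8, Crabp1 and Gmnn were 1.91, 1.16 and 0.69, and Gmnn did not pass (adjusted p = 0.401). Stra8 kept its call in the other 15 of 17 alternatives, and Crabp1 and Gmnn kept theirs in 10 and 8. Without preparation 3, and likewise without preparation 4, only Stra8 was called (4.0 and 3.74). Without preparation 1 the calls were Stra8, Crabp1 and Crip2 (3.81, 1.92 and 3.04), and without preparation 2 they were Stra8, Crabp1 and Gmnn.

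Because Stra8 and Crabp1 are both tied to retinoic acid, their promoters are shown, as 250 bases before the RefSeq start on GRCm38.p6. The window of Stra8 is chr6:34920698-34920947 and that of Crabp1 is chr9:54764498-54764747, both on the plus strand. The GENCODE gene of Stra8 given above begins earlier, at 34920163, so the window of Stra8 lies within it. Capitals mark AGGTCA, the core element bound by retinoic acid receptors and many other nuclear receptors.
Stra8: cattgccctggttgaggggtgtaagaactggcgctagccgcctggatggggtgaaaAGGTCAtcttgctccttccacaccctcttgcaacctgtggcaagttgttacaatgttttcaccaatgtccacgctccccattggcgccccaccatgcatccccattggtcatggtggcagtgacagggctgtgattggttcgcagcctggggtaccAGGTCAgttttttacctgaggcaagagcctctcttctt
Crabp1: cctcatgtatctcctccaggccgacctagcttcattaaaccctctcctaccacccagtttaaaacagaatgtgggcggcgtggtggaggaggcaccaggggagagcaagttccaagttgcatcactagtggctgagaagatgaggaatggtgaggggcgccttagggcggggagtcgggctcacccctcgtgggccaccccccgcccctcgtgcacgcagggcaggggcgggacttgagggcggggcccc
AGGTCA was found 2 times in the window of Stra8, at 194 and 38 bases before the RefSeq start, and its reverse complement TGACCT 0 times. Neither was found in the window of Crabp1. Of 32851 such windows, 4607 (14.02%) held AGGTCA or TGACCT on the strand of the gene. A match is a description of these letters only.

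No gene passed as lower in cells with both genes than in Gfra1-only cells (0 of 10409, 0%). The nearest was Hhex, a homeobox factor, with -2.0 (SE 0.38, adjusted p = 0.0703, lower in 4 of 4 preparations), followed by Eomes, a T-box factor of the least differentiated spermatogonia, with -1.18 (SE 0.30, adjusted p = 0.197, 4 of 4). Etv5 differed by -1.74 (SE 0.48, adjusted p = 0.222) and Spry4, a feedback inhibitor of FGF signalling, by -1.26 (SE 0.42, adjusted p = 0.27), each negative in 4 of 4 preparations. Tcl1, a coactivator of AKT, differed by -2.62 (SE 0.84, adjusted p = 0.262), or by -1.42 without preparation 1 (adjusted p = 0.5). Dusp6 differed by -1.30 (adjusted p = 0.36). Ret differed by -0.42 (adjusted p = 0.709) and was lower in 3 of 4 preparations. Other genes of smallest p were Polr3gl, a subunit of RNA polymerase III (-1.05), Sphk1, sphingosine kinase (-1.12), Mt1, a metallothionein (-0.53), and on the higher side Crip2 (3.66, adjusted p = 0.0703).

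The gene lists are described by their counts in both comparisons, which share the cells with both genes. Of 20 tested genes associated with stem cells, 18 lay above 0 against Kit-only cells (median 0.54; 52.3% of all genes lay above 0) and 19 lay below 0 against Gfra1-only cells (median -0.86; 63.5% of all genes lay above 0). No gene of this list passed in either comparison. Over the 17 alternatives 13 to 20 of these 20 genes lay above 0 in the first, with medians from 0.18 to 1.05, and 0 to 4 in the second. The lowest of these, 13 of 20 with a median of 0.18, came from differences taken within EGFP quartiles. Of 15 genes responsive to GDNF and FGF, 13 lay above 0 in the first (median 0.66) and 11 below in the second (median -0.42), with 0 called in each. The level in cells with both genes lay between those of Kit-only and Gfra1-only cells for 17 of 20 stem cell genes and 11 of 15 GDNF and FGF genes, against 35.2% of all 10409 genes. Cells with neither gene were not part of this count. Their mean log2 levels of Etv5 (2.22), Dusp6 (2.87) and Tcl1 (4.11) also lay between those classes, while that of Bcl6b (0.69) lay below both. A place between was thus not particular to cells with both genes. The stem cell list and the GDNF and FGF list were chosen with earlier results of these data known, and both hold Ret. The share over all genes is therefore not a matched baseline, and the counts are a description only. Of 19 genes of undifferentiated cells and progenitors, 11 lay above 0 in the first (median 0.07) and 14 in the second (median 0.25).

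Of 14 retinoic acid pathway genes, 6 lay above 0 against Kit-only cells (median -0.05) and 11 against Gfra1-only cells (median 0.43), with Stra8 and Crabp1 among the genes that passed. Cyp26a1, which degrades retinoic acid, was at 1 FPKM or more in 19 of 43 cells with both genes, 10 of 50 Kit-only and 15 of 131 Gfra1-only cells. Its log2 differences were 1.43 (adjusted p = 0.18) and 1.57 (adjusted p = 0.169). Of 13 differentiating genes, 9 (69.2%) lay above 0 against Gfra1-only cells (median 0.25), 2 of them called (Stra8 and Crabp1). Over all tested genes 63.5% lay above 0 in this comparison (median 0.14), and 0.0384% were called. The differentiating genes above 0 numbered 7 of 13 with median centring (median 0.01) and 7 with log2 of mean FPKM (median 0.12). Of 26 genes that carry KIT signals, 17 and 18 lay above 0 (medians 0.11 and 0.17), and of 14 genes of the GDNF receptor pathway 7 and 8 (medians near 0), with 0 called. Against Gfra1-only cells the KIT signal genes above 0 numbered 9 of 26 with detected genes as a covariate (median -0.15), 10 with log2 of mean FPKM (median -0.27) and 11 with median centring (median -0.07).

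Counts for cell cycle genes depended on the fit and on single preparations. All 20 genes of the G2 and mitosis list lay above 0 against Gfra1-only cells (median 0.49), but only 6 of 20 did so with detected genes as a covariate (median -0.72). Against Kit-only cells 16 of 20 lay below 0 (median -0.32), and 10 of 20 without preparation 2 (median -0.02). Aurka, a mitotic kinase, was at 1 FPKM or more in 27 of 43 cells with both genes, 38 of 50 Kit-only and 62 of 131 Gfra1-only cells, and its log2 difference from Kit-only cells was -1.46 (SE 0.37, adjusted p = 0.18, lower in 4 of 4). Of 20 S phase genes, 12 and 17 lay above 0 (medians 0.11 and 0.58); in the first, 7 did so without preparation 1 and 7 without preparation 3. Of 22 meiotic prophase genes, 10 and 17 lay above 0 (medians -0.16 and 0.34), with 13 in the first without preparation 2 and 13 without preparation 4. Of 25 nuclear genes of oxidative phosphorylation, 4 and 19 lay above 0 (medians -0.16 and 0.19). With median centring 11 of these 25 lay above 0 against Gfra1-only cells. No gene of the cell cycle, meiotic or oxidative phosphorylation lists passed in either comparison.

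For the other lists no member passed. Glycolysis genes had medians of 0.30 and 0.06, genes of surface proteins used for sorting 0.30 and -0.08, ribosomal protein genes 0.05 and -0.08, immediate early genes -0.10 and -0.48, DNA methylation genes -0.25 and 0.44 and BMP and TGF-beta targets -0.02 and -0.01, in the order of the comparisons. Of 30 ribosomal protein genes, 9 lay above 0 against Gfra1-only cells, against 26 with detected genes as a covariate (median 0.35) and 0 with median centring (median -0.32). Only the stem cell, GDNF and FGF, differentiating and DNA methylation lists kept the sign of their medians in both comparisons over the 17 alternatives. The differentiating list did so narrowly, with medians from -0.44 to -0.01 in the first and 0.01 to 0.45 in the second. The DNA methylation list, with 5 tested genes, ran from -0.40 to -0.06 and from 0.03 to 0.82.

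**Figure D5:**
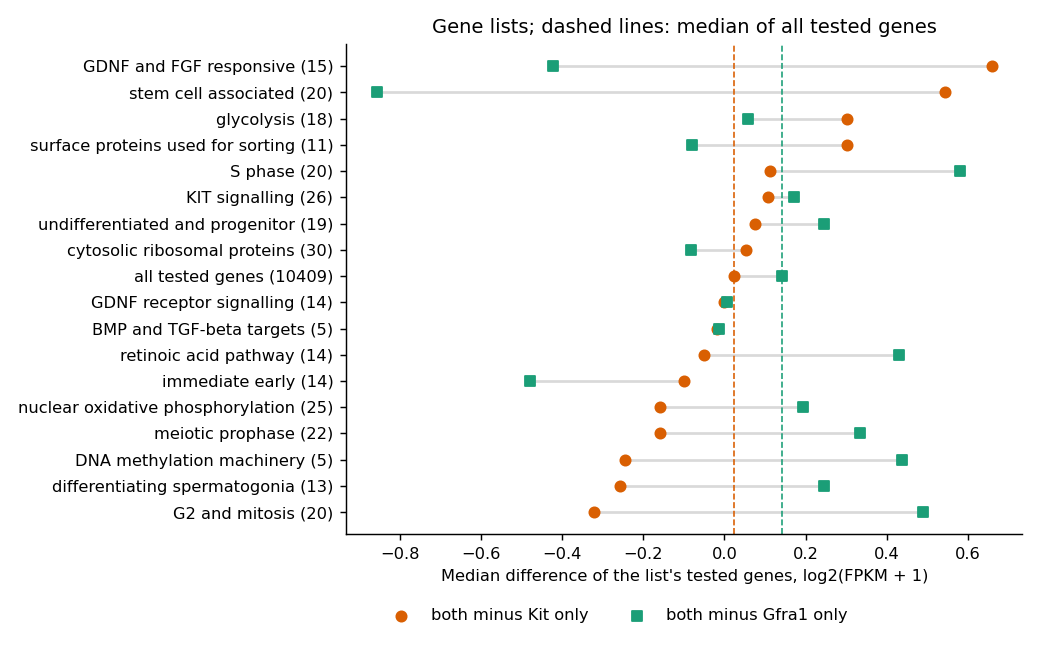
Median log2(FPKM + 1) difference of each gene list (x axis; number of tested genes in brackets), for cells with both genes minus Kit-only cells (circles) and minus Gfra1-only cells (squares). The stem cell list stands at 0.54 and -0.86, and the dashed lines mark the medians of all tested genes, 0.02 and 0.14.

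The 43 cells were not alike among themselves, and the EGFP label gives a way to divide them that the rule did not use. The 22 brighter cells (Q1 and Q2) were set against the 21 dimmer ones (Q3 and Q4) in each preparation, though preparation 1 held only 1 and 2 of them. The genes singled out here were chosen after their values were seen. Any gene with the same sign in all 4 preparations gives an exact p of 0.125, so these p-values add nothing to the signs. Etv5 was at 1 FPKM or more in 22 of 22 brighter and 12 of 21 dimmer cells, with medians of 32.1 and 2.15 FPKM, and its mean log2 level was higher in the brighter cells in 4 of 4 preparations by 2.99 on average (exact two-sided sign-flip permutation p = 0.125). Dusp6 had medians of 48.9 and 5.06 FPKM and a mean difference of 3.72, and Ret had medians of 10.6 and 0.74 FPKM and a mean difference of 2.43, each higher in 4 of 4 preparations (exact p = 0.125). Without preparation 1 the mean differences of Etv5, Dusp6 and Ret were 2.32, 2.48 and 1.95. Tcl1 had medians of 226 and 1.47 FPKM and was higher in 3 of 4 preparations. Lhx1, a LIM homeobox factor, and Eomes were each at 1 FPKM or more in 9 brighter cells and 1 dimmer cell.

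On the other side, Sohlh1 had medians of 64.6 FPKM in the brighter and 151 in the dimmer cells, lower in the brighter cells in 4 of 4 preparations (exact p = 0.125). Dnmt3b, Rarg and Neurog3 were also lower in the brighter cells in every preparation, by mean log2 differences of -1.03, -0.80 and -1.15. Neurog3 was at 1 FPKM or more in 2 brighter and 7 dimmer cells, and Nanos2, an RNA-binding protein of stem cells, in 1 and 4. The mean log2 difference of Nanos2 was -0.72, higher in 0 of 4 preparations, with a difference of 0 in preparation 1. Bcl6b, a repressor that GDNF induces, was at 1 FPKM or more in 9 and 7 cells and higher in the brighter ones in 2 of 4 preparations. Stra8 was held by 20 of 22 brighter and 19 of 21 dimmer cells, with medians of 203 and 346 FPKM, and it was lower in the brighter cells in 3 of 4 preparations. The levels of the genes that define the class overlapped widely: Gfra1 had medians of 26.2 and 18.1 FPKM and Kit 19.7 and 28.6 FPKM in brighter and dimmer cells. The panel of 30 genes and the 2 class genes were looked at in this way, and with 4 preparations no difference could pass 0.05.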

How the data were processed

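C1 single-cell RNA-seq was deposited as a table of 23354 gene names by 300 cells, with all columns mapped to a sample and 0 identical columns. The values were taken as FPKM, as the authors' Cufflinks gives, since the submitters' processing notes name TopHat, Cufflinks, FastQC and Picard with mm10 and GRCm38, without versions, and the file headers name no unit. Per the deposited values, FPKM summed to 348305 to 682985 per cell. Depth in reads is not given in the sources used here, low FPKM values did not fall on whole-read steps, and no count model was used. An FPKM of 0 means only that the gene is listed at 0. Of the names, 140 matched no symbol, 25 of them turned into dates. Id4 and mitochondrial genes were not analysed here. Of the genes that passed the test, 1 is not reported here.

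Cells were classed at 1 FPKM. Means of log2(FPKM + 1) per preparation and class (16 means of at least 3 cells) entered limma 3.58.1 (R 4.3.3) with class, and preparation as a block, with trended and robust variances. Genes needed 1 FPKM in at least 30 cells (10409 genes, Gfra1 and Kit left out), and p-values were Benjamini-Hochberg adjusted at 0.05. The fit was tried on simulated data in which every class drew from all cells of a preparation, with set shifts added for some genes. Class differences in detection or brightness were not simulated. The classes were paired by the number in the sample titles, on the reading that it marks the preparation, which the labels do not state: deviations of same-preparation means correlated at -0.0048 to 0.401 over 24 pairs (median 0.10), and 14 of 16 means correlated best with their own preparation. Per-cell measures were tested by exact sign flips over the 4 preparation differences. Whether preparations are fully independent is not stated beyond the labels.

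The members, lists and panel were chosen with earlier results of these data known. Named genes are a panel of 30, the 5 of smallest p in each direction of each comparison where fewer than 5 passed, and up to 3 per list by smallest p against Kit-only cells, skipping predicted genes and clone names. Alternatives covered the pseudocount, filters, block, detected genes, classes in the fit, cell weights, scaling, quartiles, the class threshold and leaving out each preparation. After the data were seen, 2 more were added: the threshold of 5 FPKM with the 2 cells of preparation 1 kept, and a fit without the 9 cells that matched another cell type. Gene positions are from GENCODE vM21 and promoters from RefSeq. Text statistics used Python 3.11.15 and pandas 2.3.3.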

Additional observations from a re-analysis of the deposited data

Results flagged for a closer look

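In 6 of the 113 sets of 4 preparation differences examined, the difference of 1 preparation stood far from the other 3, by Dixon's 95% criterion. The criterion by its design flags about 1 in 20 independent sets. The sets here share cells and are not independent, and the cause of these flags was not tested. All 6 concern cells with both genes against Kit-only cells, on the log2(FPKM + 1) scale. In preparation 1, which holds only 3 cells with both genes, Etv5 stood at -0.71, Tcl1 at -3.49, Sohlh2 at 2.42, Sh2b3 at 2.18 and Ndufs1 at -2.36. In preparation 2, Kctd15 stood at -0.18 beside differences of -2.14, -2.04 and -1.92 in preparations 1, 3 and 4.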

How the results depend on the processing

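Against Kit-only cells, 0 genes passed in the main fit and in 14 of 17 alternatives. With a pseudocount of 0.1, 1 passed (Tagln2, 2.83), with means weighted by cells 1 (Kctd15, -1.73), and leaving out each preparation gave 0 to 1. Against Gfra1-only cells, 4 passed in the main fit. The count was 1 with no filter on low values, 1 with only the 2 classes compared, 12 with means weighted by cells (11 higher, 1 lower), 2 with log2 of mean FPKM, 0 with detected genes as a covariate beside the replicate block and 0 within quartiles. Leaving out each preparation gave 1 to 3. Without the replicate block 1 gene passed (Stra8) against Gfra1-only cells and 0 against Kit-only cells. A class threshold of 5 FPKM gave 5 and 0 calls, with or without the 2 cells of preparation 1, and leaving out cells that matched another cell type gave 4 and 0. The difference in detected genes was 71.7 to 210 genes over the preparations left out, and that in mean EGFP quartile -0.90 to -0.49. Without the replicate block their exact permutation p was 0.714 and 0.0857. The difference in the share of cells with Stra8 was -0.64 percentage points in the main analysis, -3.64 to 4.44 over the preparations left out, 0.52 at a class threshold of 5 FPKM and 7.75 at a detection threshold of 5 FPKM. The cause of these changes was not tested. Sign changes without a call occurred in 47 pairs of gene and setting over 19 genes against Kit-only cells (Stra8 among them, within quartiles) and in 33 pairs over 9 genes against Gfra1-only cells, among them Ccnd1, Ddx4, Lin28a and Top2a in both. Precision is limited by 4 preparations, by the 3 cells with both genes in preparation 1 and by an unknown read depth.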
